A study of Mus musculus with 10 samples.

Results

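Ephrins are membrane-bound ligands, and Eph receptors are the receptor tyrosine kinases that bind them. The genes described here are 10 members of this system, the ephrins Efna1, Efna5, Efnb1 and Efnb2 and the receptors Epha4, Epha7, Ephb1, Ephb2, Ephb3 and Ephb4. They were taken by gene symbol from a table of 35663 entries, in which 22 ephrin and Eph genes are listed. All 10 were found, and all 10 passed the filter on low values in every comparison.

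RNA was sequenced from whole kidneys of E13.5 mouse embryos of strain C57/b6, in 10 libraries of 3 groups. Wild-type kidneys gave 4 libraries. Foxd1GC control kidneys (genotype Foxd1-Cre, 3 libraries) carry a Cre allele driven from Foxd1, a gene of stromal progenitors, and keep Ntn1. Ntn1SPKO kidneys (Foxd1-Cre with the conditional alleles Ntn1c/c, 3 libraries) carry the same Cre allele and lose Ntn1, which encodes the secreted guidance protein netrin-1, in the stroma. Cells outside the Foxd1 lineage keep their Ntn1 alleles, and a whole-kidney library mixes both kinds of cell. The labels do not say whether the libraries of a group came from separate embryos or litters, so p-values measure only the spread between these libraries, which may be technical. Y-linked transcripts, given below, differed within the wild-type and Foxd1GC control groups, so not all libraries of those groups came from the same embryo.

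A-type ephrins are tied to the membrane by a lipid anchor and bind mainly EphA receptors, whereas B-type ephrins span the membrane and bind mainly EphB receptors. Both partners can signal into their own cell on contact, and contact can repel or join cells, which helps to set tissue boundaries. In blood vessels ephrin-B2 marks arterial endothelium and EphB4, its main receptor there, marks venous endothelium, and in the kidney B-type members also act in mural cells, podocytes and ureteric bud.

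Values are FPKM, the fragments of a gene scaled to the length of its coding sequence and to a size factor of the library, so levels can be compared between genes. Differences between groups were tested on log2(FPKM + 0.1), where 1 unit is 2-fold for a gene well above 0.1 FPKM. Calls required both a 2-fold change or more and an adjusted p below 0.1. The deleted gene checks the labels. Ntn1 was at 16.3, 13.1 and 10.7 FPKM in the Ntn1SPKO libraries, at 40.7, 24.2 and 51.5 FPKM in the Foxd1GC control libraries and at 32.0, 28.4, 27.1 and 46.3 FPKM in the wild-type libraries. Every Ntn1SPKO library was below every other library. Ntn1 was still not called, with a log2 difference of −1.48 against control (limma adjusted p = 0.447) and −1.30 against wild type (limma adjusted p = 0.140). A gene that is not called may therefore still differ.

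Some libraries stood apart. Wild-type library 3 had the largest summed FPKM, 1002638, where the other 9 had 795829 to 874966. Foxd1GC control library 3 had 93.1 summed FPKM for 8 ureteric bud markers, against 202 to 240 in the other 9, 103 for 6 markers of early nephrons, against 169 to 258, and 437 for 10 skeletal muscle markers, against 16.7 to 104. All genes of these 3 lists were above 0 in every library. Transcripts of 4 Y-linked genes summed to 88.6 to 98.1 FPKM in 5 libraries, namely all 3 Ntn1SPKO libraries, Foxd1GC control library 2 and wild-type library 3, and to at most 1.02 FPKM in the other 5. Sex and Ntn1SPKO genotype therefore go together in most of these libraries.

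Efnb1 was the most abundant of the 10 genes and the steadiest. It encodes ephrin-B1, a transmembrane ligand, and lies on the X chromosome (GRCm38, 99136130 to 99148991). It was at 58.0, 59.8, 49.8 and 58.1 FPKM in wild-type, at 58.5, 59.3 and 60.2 FPKM in Foxd1GC control and at 57.4, 57.3 and 57.5 FPKM in Ntn1SPKO kidneys. Wild-type library 3 was the low one. The 3 Ntn1SPKO libraries lay just below the 3 control libraries, without overlap, and inside the wild-type range. The difference in log2(FPKM + 0.1) between Ntn1SPKO and control was −0.05 (95% interval −0.16 to 0.07, exact permutation p = 0.1, two-sided, the smallest that 3 against 3 libraries allow).

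Efnb2, which encodes the arterial ligand ephrin-B2, had the largest coefficient of variation of the 10 genes, 17.0% over the 10 libraries. Ephb1 was close behind at 16.8%, and Efnb1 was at 5.06%. Efnb2 lies on chromosome 8 (8617434 to 8661242). Its level was 36.8, 33.8, 27.2 and 27.6 FPKM in wild-type, 30.5, 31.5 and 19.3 FPKM in Foxd1GC control and 37.4, 31.2 and 30.9 FPKM in Ntn1SPKO kidneys. Control library 3, at 19.3 FPKM, was the lowest of all 10, and the other 9 were at 27.2 to 37.4 FPKM. Ntn1SPKO kidneys averaged 33.2 ± 3.66 FPKM (SD, n = 3) and control kidneys 27.1 ± 6.78 FPKM (n = 3), and the groups overlapped. The log2 difference was 0.32 (95% interval −0.17 to 0.80, limma adjusted p = 0.494), and 0.09 (−0.16 to 0.34) without control library 3. The low ureteric and early nephron markers and the high skeletal muscle markers of that library were measured beside its low Efnb2, and their part in the difference was not tested.

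Efna5 encodes ephrin-A5, a lipid-anchored ligand (chromosome 17, 62604184 to 62881317). It was at 33.6, 33.2, 26.6 and 35.1 FPKM in wild-type, at 30.5, 26.0 and 30.8 FPKM in Foxd1GC control and at 30.4, 27.8 and 23.5 FPKM in Ntn1SPKO kidneys. Ntn1SPKO kidneys averaged 27.3 ± 3.49 FPKM (n = 3), control kidneys 29.1 ± 2.67 FPKM (n = 3) and wild-type kidneys 32.1 ± 3.78 FPKM (n = 4), and all 3 groups overlapped. The log2 difference was −0.10 (95% interval −0.38 to 0.19) against control and −0.24 (−0.53 to 0.05, limma adjusted p = 0.947) against wild type. The 5 libraries with Y-linked transcripts, at 23.5 to 30.4 FPKM, lay below the 5 without, at 30.5 to 35.1 FPKM, with a gap between the sets that was small beside the range of either.

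Efna1 encodes ephrin-A1, another lipid-anchored ligand (chromosome 3, 89271733 to 89281142). Its levels were 14.2, 13.2, 16.9 and 13.0 FPKM in wild-type, 16.0, 15.6 and 16.3 FPKM in Foxd1GC control and 14.4, 15.8 and 16.9 FPKM in Ntn1SPKO kidneys. The groups overlapped, and the highest library of all was wild-type library 3, which was the lowest wild-type library for 7 of the other 9 genes. Between Ntn1SPKO and control the log2 difference was −0.02 (95% interval −0.22 to 0.17).

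Among the receptors Ephb2 had the clearest separation. It encodes EphB2, a receptor for B-type ephrins, and lies on chromosome 4 (136647539 to 136835988). Its level was 27.9, 25.6 and 25.6 FPKM in Ntn1SPKO, 24.0, 20.5 and 23.0 FPKM in Foxd1GC control and 21.4, 26.5, 17.1 and 26.3 FPKM in wild-type kidneys. Every Ntn1SPKO library was above every control library, but 2 of the 4 wild-type libraries lay above the lower Ntn1SPKO libraries. Ntn1SPKO kidneys averaged 26.4 ± 1.35 FPKM (n = 3) against 22.5 ± 1.84 FPKM (n = 3) in control kidneys, a log2 difference of 0.23 (95% interval 0.03 to 0.43). That gave an unadjusted p of 0.0313 and an adjusted p of 0.447 over all genes with limma, and an exact permutation p of 0.1, so Ephb2 was not called. Among the 5 libraries with Y-linked transcripts, the control library (20.5 FPKM) and the wild-type library (17.1 FPKM) were both below the 3 Ntn1SPKO libraries. Each is a single library of its group. Both were also the lowest of their group for other members, such as Efna5, Epha4, Ephb1 and Ephb4, but not for all. The part of sex in the Ephb2 difference was not tested by this order. Against wild type the log2 difference was also 0.23 (−0.13 to 0.59), and 0.10 (−0.13 to 0.33) without wild-type library 3.

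Ephb4 encodes EphB4, the venous receptor for ephrin-B2, and was the most abundant receptor (chromosome 5, 137350109 to 137378669). It was at 45.9, 44.6, 35.5 and 45.6 FPKM in wild-type, at 47.2, 42.8 and 45.9 FPKM in Foxd1GC control and at 45.0, 43.8 and 45.8 FPKM in Ntn1SPKO kidneys. All libraries but wild-type library 3 fell between 42.8 and 47.2 FPKM. The log2 difference between Ntn1SPKO and control was −0.01 (95% interval −0.16 to 0.14), which bounds any difference to between 0.896-fold and 1.10-fold at this confidence.

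Epha7 and Epha4 encode receptors that bind A-type ephrins, and EphA4 also binds B-type ephrins. Epha7 (chromosome 4, 28813131 to 28967499) was at 18.0, 16.2, 15.9 and 13.9 FPKM in wild-type, at 19.1, 15.4 and 18.2 FPKM in Foxd1GC control and at 15.5, 13.3 and 16.8 FPKM in Ntn1SPKO kidneys. Epha4 (chromosome 1, 77367185 to 77515088) was at 16.6, 16.4, 13.3 and 15.2 FPKM in wild-type, at 15.2, 14.7 and 18.1 FPKM in control and at 16.0, 14.4 and 14.1 FPKM in Ntn1SPKO kidneys. For both genes the groups overlapped. The log2 difference between Ntn1SPKO and control was −0.21 (95% interval −0.50 to 0.09) for Epha7 and −0.11 (−0.36 to 0.14) for Epha4.

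Ephb3 and Ephb1, further receptors for B-type ephrins, were the least abundant. Ephb3 (chromosome 16, 21204755 to 21223305) was at 6.53, 5.56, 5.89 and 6.94 FPKM in wild-type, at 7.31, 5.17 and 6.88 FPKM in Foxd1GC control and at 6.51, 4.82 and 6.59 FPKM in Ntn1SPKO kidneys. Ephb1 (chromosome 9, 101922128 to 102354693) was at 1.99, 1.75, 1.27 and 2.09 FPKM in wild-type, at 2.31, 1.78 and 2.35 FPKM in control and at 1.74, 1.82 and 2.16 FPKM in Ntn1SPKO kidneys. Each gene overlapped between all groups. Depth estimated from the steps between low values was about 26.9 to 33.1 M fragments (1 M is 1e6), which puts roughly 120 to 200 fragments behind Ephb1 in a library and 3500 to 4200 behind Ephb4.

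**Figure D1:**
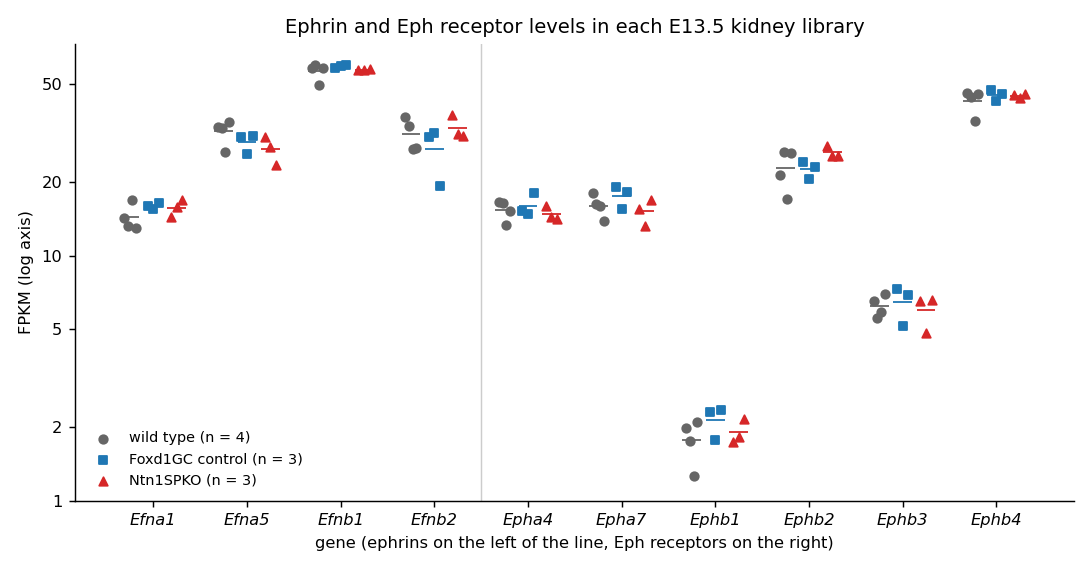
Level of each of the 10 genes in FPKM (log axis) in every library, with 4 wild-type, 3 Foxd1GC control and 3 Ntn1SPKO libraries per gene as points and the group mean as a line. Levels ran from 1.27 FPKM for Ephb1 to 60.2 FPKM for Efnb1, and the groups overlapped for most genes.

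The order of the levels was nearly the same in each group. Over the 10 libraries the means were 57.6 FPKM for Efnb1, 44.2 for Ephb4, 30.6 for Efnb2, 29.8 for Efna5, 23.8 for Ephb2, 16.2 for Epha7, 15.4 for Epha4, 15.2 for Efna1, 6.22 for Ephb3 and 1.93 for Ephb1. Neighbours whose ranges over the libraries did not meet were Efnb1 and Ephb4, Efna1 and Ephb3, and Ephb3 and Ephb1. Efnb2 exceeded Efna5 in 8 of 10 libraries, Epha7 exceeded Epha4 in 6 of 10 and Epha4 exceeded Efna1 in 5 of 10, so these neighbours were not separated by the spread.

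The first comparison asked what loss of stromal Ntn1 changed against kidneys with the same Cre allele. With limma, 0 of the 10 members were called, as were 8 of 14550 genes tested (0.055%). The deleted gene Ntn1 was not called either, so the absence of calls does not show that the members are unchanged. At an unadjusted p under 0.05 the count was 1 of 10, Ephb2, where all genes gave 10.7%. The groups did not overlap for 2 of 10, Efnb1 (lower in Ntn1SPKO) and Ephb2 (higher), where all genes gave 19.9%. Both shares are near the background. Without control library 2, 8 of 10 members did not overlap, but neither did 45.5% of all genes, and Epha7 took the place of Ephb2 under the unadjusted limit. Without any one Ntn1SPKO library 0 of 10 were under that limit. The difference was below 0 for 8 members and above 0 for Efnb2 and Ephb2. The median log2 difference was −0.07 over the members and 0.0067 over all genes, and the median size without sign was 0.11 and 0.15. The 95% intervals of all 10 members lay within a 2-fold change in either direction, as did those of 79.7% of all genes. The signs depended on the fit. With sex as a covariate, a fit that rests on control library 2, Efna1, Efna5, Epha4, Ephb1, Ephb3 and Ephb4 turned above 0. Efnb1 and Epha7 stayed below 0, and Efnb2 was at 0.07 and Ephb2 at 0.36.

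Against wild-type kidneys, 0 of 10 members were called in Ntn1SPKO kidneys, with 0.0485% of 14432 genes called. At an unadjusted p under 0.05 the count was 0 of 10 (5.76% of all genes), and the groups overlapped for all 10 (no overlap in 7.1% of all genes). The lowest adjusted p was 0.947. The differences ran from −0.24 for Efna5 to 0.23 for Ephb2, with a median of 0.05. Every member's 95% interval lay within 2-fold, as in 87.4% of all genes. Without wild-type library 3, chosen after it was seen to stand apart, Efna5 (log2 difference −0.32), Efnb1 (−0.03) and Efna1 (0.22) did not overlap, 3 of 10 against 12.5% of all genes, and Efna1 and Efna5 had an unadjusted p under 0.05 with a lowest adjusted p of 0.532 by limma.

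The Foxd1GC control kidneys were compared with wild type to see what the Cre allele itself went with. Again 0 of 10 members were called (0.00685% of 14594 genes), 0 had an unadjusted p under 0.05 (7.06%), and all 10 overlapped (no overlap in 8.09%). The differences ran from −0.23 for Efnb2 to 0.27 for Ephb1, with a median of 0.07 and a lowest adjusted p of 0.678. All 10 intervals lay within 2-fold, as in 81.6% of all genes. Without wild-type library 3, 2 of 10 members did not overlap (Efna5 lower and Efna1 higher in control, 19.7% of all genes), and the same 2 had an unadjusted p under 0.05. Without control library 2 there were also 2 of 10, Epha7 and Ephb1 (28.0%). Without control library 3 the Efnb2 difference was −0.0023 (95% interval −0.34 to 0.34). The 3 comparisons share libraries, so their values are not independent of each other. In whole kidneys, fewer cells of a type and less RNA per cell cannot be told apart.

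**Figure D2:**
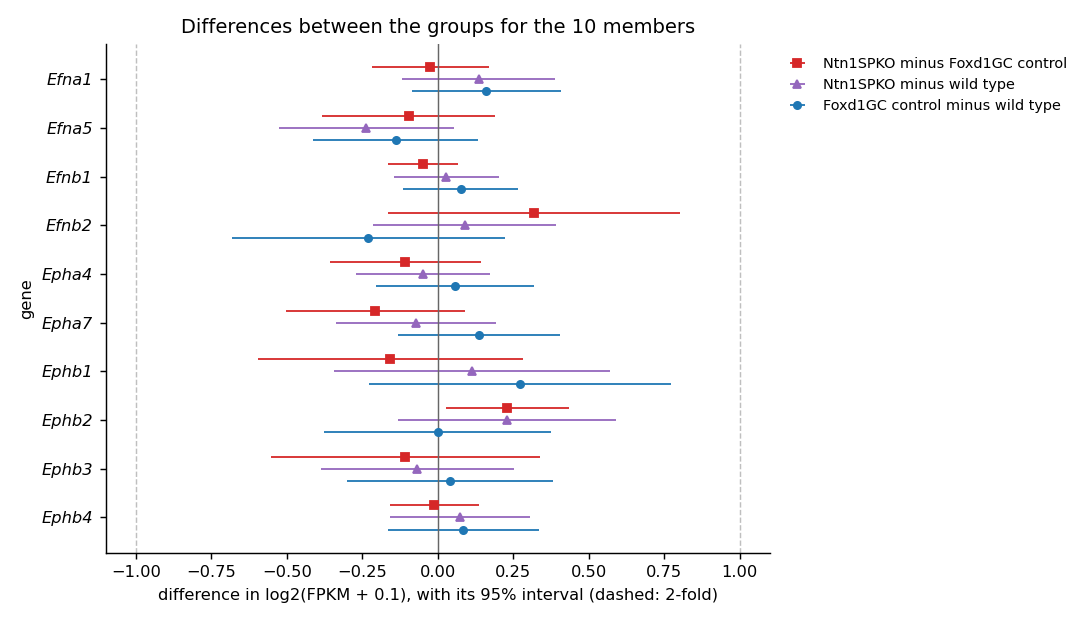
Difference in log2(FPKM + 0.1) between groups for each of the 10 genes (points) with its 95% interval from limma (bars), for Ntn1SPKO minus Foxd1GC control, Ntn1SPKO minus wild type and Foxd1GC control minus wild type. All 30 intervals lie inside the dashed lines at 2-fold, and the Ephb2 interval of the first comparison is the one that does not cross 0.

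Ligand and receptor totals describe the system as a whole. The 8 ephrins of the table summed to 172.8 to 198.6 FPKM per library and the 14 Eph receptors to 103.8 to 134.5 FPKM. The ratio of the sums was 1.52 ± 0.0975 (SD, n = 4) in wild-type, 1.49 ± 0.0490 (n = 3) in Foxd1GC control and 1.45 ± 0.0660 (n = 3) in Ntn1SPKO kidneys, which overlapped. The 4 ephrins among the 10 genes held 63.7% to 73.5% of the ephrin sum, with the lowest share in control library 3, and the 6 receptors held 84.0% to 86.5% of the receptor sum.

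B-type members made up more than their A-type partners among both ligands and receptors. Ephrin-B genes held 49.7% to 55.2% of the ephrin sum, falling just under the A-type share in control library 3, and EphB genes held 61.6% to 68.2% of the receptor sum. Ephb4 alone held 33.9% to 35.8% of the receptor sum and Efnb1 28.8% to 32.3% of the ephrin sum. These narrow ranges include wild-type library 3, in which the receptor sum was lowest.

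**Figure D3:**
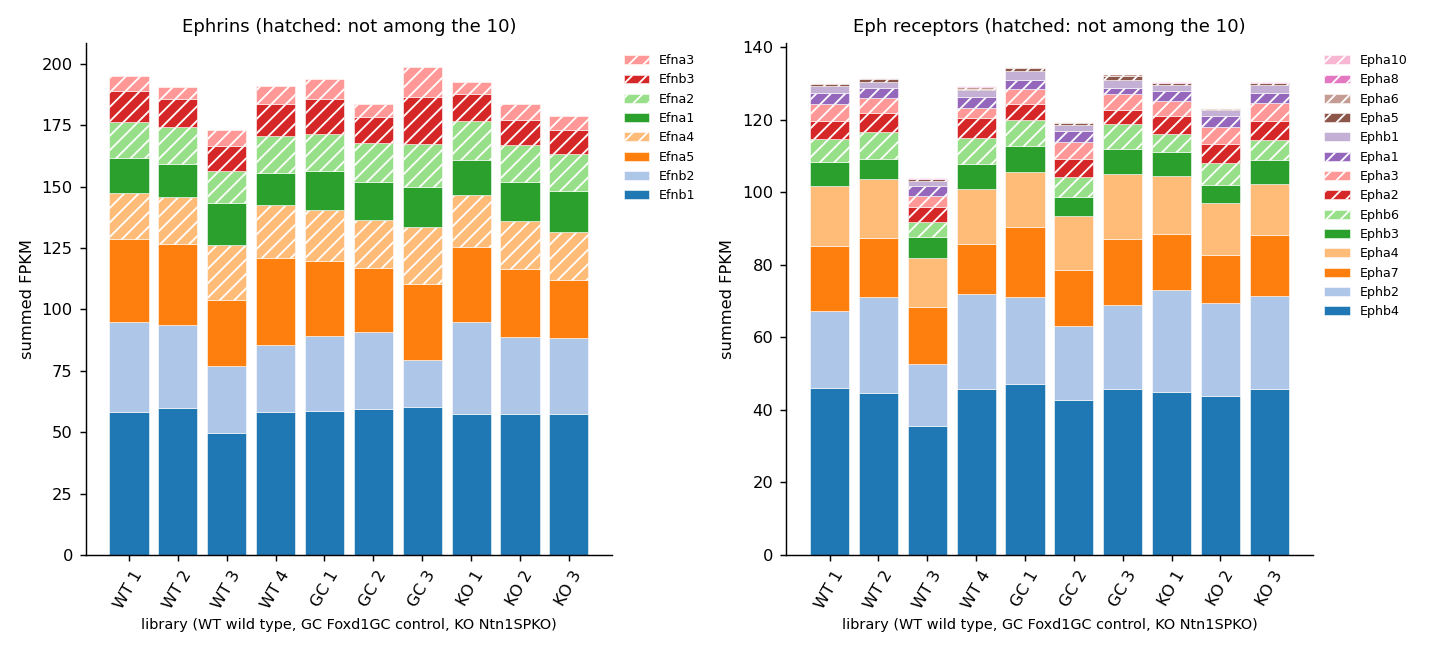
Summed FPKM of the 8 ephrins (left) and the 14 Eph receptors (right) in each library, stacked by gene, with genes outside the 10 hatched. The receptor sum was 103.8 FPKM in wild-type library 3 and at least 119.5 FPKM elsewhere, and Efnb1 and Ephb4 form the largest segment in every library.

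The arterial ligand and the venous receptor were also set against each other. The log2 ratio of Efnb2 to Ephb4 was −0.46 ± 0.18 (SD, n = 4) in wild-type, −0.77 ± 0.42 (n = 3) in Foxd1GC control and −0.44 ± 0.16 (n = 3) in Ntn1SPKO kidneys. Control library 3 was at −1.24 and the other 9 libraries were between −0.73 and −0.27. The Ntn1SPKO and wild-type ranges overlapped in part, with the highest library in Ntn1SPKO and wild-type library 4 below all 3 Ntn1SPKO libraries. Summed FPKM of 8 pan-endothelial markers, all above 0 in every library and with Cdh5 the most abundant, was 159 to 196 in wild-type, 205 to 226 in control and 190 to 216 in Ntn1SPKO kidneys. For 9 arterial markers it was 147 to 169, 143 to 155 and 151 to 156, and for 4 venous markers 302 to 345, 325 to 348 and 330 to 378, in the same order. Nrp1 was the most abundant of the arterial list and Nr2f2 of the venous list. The venous sum was above the pan-endothelial sum in every library. Whether the arterial and venous sums come from endothelium alone was not tested, so they are not measures of arterial or venous content. Per 100 FPKM of the pan-endothelial markers, Efnb2 stood at 16.4 to 18.8 in wild-type, 8.74 to 14.9 in control and 14.4 to 19.7 in Ntn1SPKO kidneys. The control libraries were thus all below the wild-type libraries on this ratio, in which the endothelial sum was higher in every control library than in any wild-type library. Ntn1SPKO libraries 2 and 3, at 14.43 and 14.75, were also below every wild-type library. Efnb2 itself overlapped between control and wild type.

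**Figure D4:**
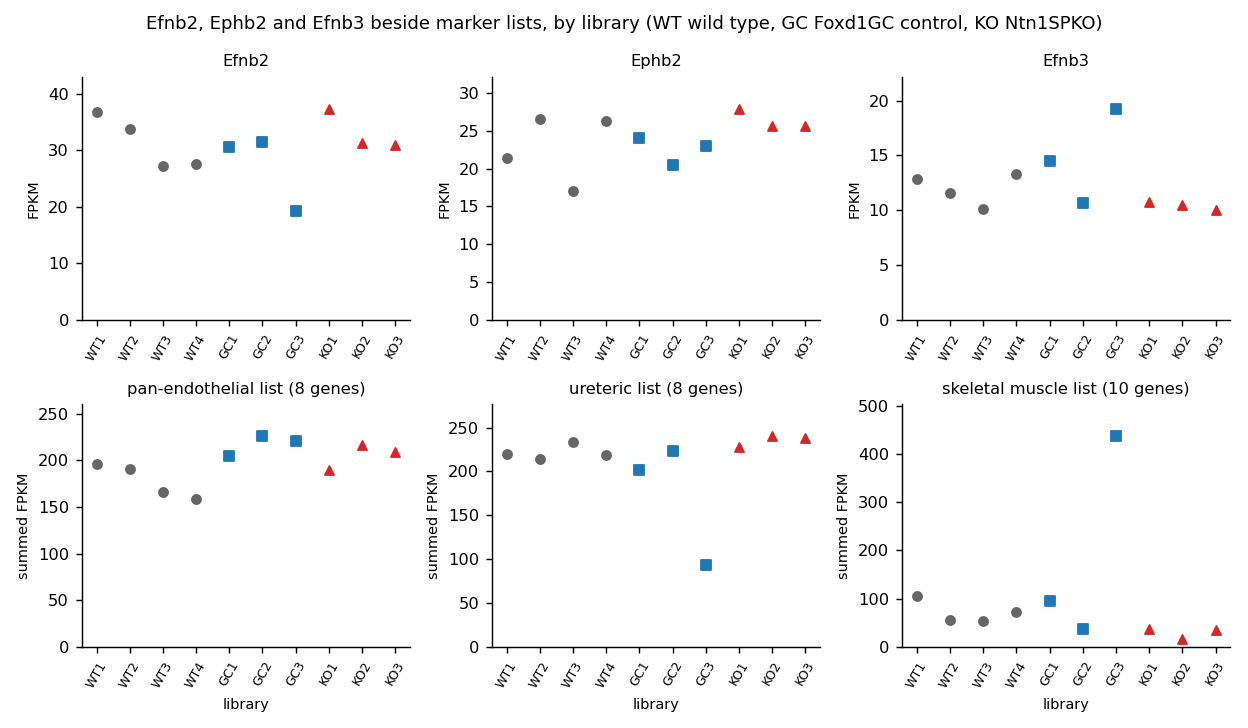
FPKM of Efnb2, Ephb2 and Efnb3 (top) and summed FPKM of the pan-endothelial, ureteric and skeletal muscle marker lists (bottom) in each library, with axes from 0. Foxd1GC control library 3 is lowest for Efnb2 (19.3 FPKM) and for the ureteric list (93.1), and highest for Efnb3 (19.3 FPKM) and the skeletal muscle list (437).

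The remaining 12 genes of the family gave the surroundings of the 10. Efna4, Efna2 and Efnb3 were the most abundant, with means of 20.6, 15.2 and 12.3 FPKM over the 10 libraries. Efna3 (6.71), Ephb6 (6.13), Epha2 (4.84), Epha3 (4.15) and Epha1 (2.69) followed. Epha5 averaged 0.597 FPKM, and Epha6, Epha8 and Epha10 averaged 0.225, 0.106 and 0.0178 FPKM. Of the 12 genes, 9 passed the filter in the first comparison, 8 in the second and 9 in the third, and 0 were called in any of them with limma, with 0 at an unadjusted p under 0.05 as well (10.7%, 5.76% and 7.06% of all genes). The latter count depended on the fit, since Efnb3 had an unadjusted p of 0.0337 with limma between Ntn1SPKO and control when all 10 libraries were fitted together.

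The largest differences in this rest of the family were those of Efnb3, Efna3 and Epha5. They moved when single control libraries were left out or sex was added as a covariate. Efnb3, the third B-type ligand, was at 10.7, 10.5 and 9.97 FPKM in Ntn1SPKO, 14.5, 10.6 and 19.3 FPKM in Foxd1GC control and 12.8, 11.6, 10.1 and 13.3 FPKM in wild-type kidneys, with control library 3 the highest. Its log2 difference between Ntn1SPKO and control was −0.47 (95% interval −0.96 to 0.03), and −0.26 (−0.61 to 0.10) without that library. Efna3, an A-type ligand, and Epha5, a receptor, were also highest there, at 12.2 and 1.20 FPKM, and their differences of −0.53 and −0.77 became −0.24 and −0.53 without it. Without control library 2 the differences were larger, −0.68 for Efnb3, −0.81 for Efna3 and −1.09 for Epha5, all with an unadjusted p under 0.05 and with a lowest adjusted p of 0.133 by limma. With sex as a covariate they were −0.04, 0.05 and −0.12, and the difference of Ntn1 went from −1.48 to −0.87. That fit rests on control library 2, so sex and that library cannot be told apart. Epha1 was lowest in control library 3, at 1.63 FPKM against 2.62 to 3.05 FPKM in the other 9 libraries.

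Epha6 was the one gene of the 22 for which all 3 Ntn1SPKO libraries, at 0.120, 0.101 and 0.0918 FPKM, lay below all 7 others, at 0.167 to 0.536 FPKM. It did not pass the filter of 0.5 FPKM and was not tested across genes, and such levels rest on few fragments. The share of all genes with this pattern was not counted, so the place of Epha6 cannot be judged. Of the genes tested, 19.9% did not overlap against control and 7.1% against wild type. Efna5, Efnb3 and Ephb6 were lower in the 5 libraries with Y-linked transcripts than in all 5 without, at 23.5 to 30.4, 9.97 to 10.7 and 4.18 to 6.30 FPKM against 30.5 to 35.1, 11.6 to 19.3 and 6.44 to 7.30 FPKM. That is 3 of the 19 family genes that averaged 0.5 FPKM or more, where 2.02% of the 14534 genes at that level had sets without overlap. The 2 libraries of the lower set that are not Ntn1SPKO, control library 2 and wild-type library 3, were at 26.0 and 26.6 FPKM for Efna5 and at 10.6 and 10.1 FPKM for Efnb3. With sex as a covariate, a fit that rests on control library 2, the log2 difference between Ntn1SPKO and control was 0.06 for Efna5, −0.04 for Efnb3 and −0.02 for Ephb6.

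Beside the receptors and ligands, 41 genes of Eph and ephrin signalling were examined, of which 39 passed the filter in each comparison. They include adaptors, exchange factors, kinases, phosphatases, GTPases, proteases and a transcription factor. With limma 0 were called in any comparison. At an unadjusted p under 0.05, Stat3, a transcription factor, was lower in Ntn1SPKO than in control kidneys and Rac1 and the adaptor Crkl were higher, 3 of 39 against 10.7% of all genes. Against wild type the count was 0 of 39 (5.76% of all genes). Between control and wild type it was 2 of 39, Vav3 (lower) and Stat3 (higher), where all genes gave 7.06%.

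The largest differences between Ntn1SPKO and control in this list were −0.61 for Stat3 and −0.32 for the kinase Src, and 0.54 for Vav3 and 0.52 for the phosphatase Ptpn13. Between control and wild type the same 4 genes were at the ends of the list, with 0.46 for Stat3, 0.35 for Src, −0.58 for Vav3 and −0.57 for Ptpn13. Both comparisons share the control libraries. Between Ntn1SPKO and wild type those at the ends were Chn2 (−0.21) and Tiam1 (−0.17), which act on Rac, and Arhgef15 (0.31), an exchange factor of the ephexin family, and Inppl1 (0.22), a lipid phosphatase.

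For each gene the protein-coding genes with the most similar pattern were found among 13060 genes by Pearson's r of log2(FPKM + 0.1) over the 10 libraries. They are descriptions, since the libraries share their groups and the best of so many genes is always high. The nearest were Plxnb2 (r = 0.983) and Sptbn1 (0.967) for Ephb4, Zfp512b (0.974) and Cul7 (0.962) for Ephb1, Gpr155 (0.970) and Zfp143 (0.962) for Efnb2, and Zfp236 (0.957) and Actn4 (0.956) for Ephb2. Lhfpl2 (0.956) and Zfp606 (0.955) were nearest to Epha4, Pdlim1 (0.947) and Mpped1 (0.936) to Epha7, Mgp (0.938) and Ppox (0.917) to Efna1, Plac9a (0.906) and Pmel (0.885) to Ephb3, and Fzd7 (0.885) and Rassf8 (0.880) to Efna5. For Efnb1 they were Dock6 (0.953) and Kif21b (0.948), which fell to 0.656 and 0.128 when the 2 libraries farthest from its median were left out.

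The 10 genes are scattered over 9 chromosomes of GRCm38, with only chromosome 4 holding 2 of them, Epha7 and Ephb2. Efna1 lies 32.8 kb from Efna3, which lies 10.4 kb from Efna4, all on the same strand of chromosome 3. Ephb2 lies 93.4 kb from Epha8, on the same strand of chromosome 4, yet averaged 23.8 FPKM where Epha8 averaged 0.106 FPKM. Of 31-base words in the annotated coding sequence, at most 0.27% of any of the 10 genes occurred in a transcript of another coding gene or pseudogene, so few fragments can be shared between the members. The protein-coding genes that overlap a member are Zan, with Ephb4, at 0.186 FPKM, and 9630041A04Rik, with Ephb1, listed at 0, both on the opposite strand. In RefSeq's promoter windows of 300 bases for GRCm38.p6, the 12 windows of the 10 genes held 14 to 38 CG pairs and 55.7% to 73.3% G or C, against a median of 7 pairs and 52.7% over 32851 windows, and every one held at least 10 such pairs, as did 43.5% of all windows.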

How the data were processed

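RNA-seq of whole E13.5 kidneys was used, with 10 libraries grouped by their deposited titles and 0 columns left unmapped. The authors quantified reads with Salmon against GRCm38 coding sequences, summarised them to genes with tximport, and deposited FPKM, the unit used here. The submitters' processing notes also name bcl2fastq 2.17.1.14. Size factors by the median of ratios, taken from 16550 genes never at 0, were equal (1.002), so no rescaling was done. Equal factors beside unequal summed FPKM mean that the values were already on a median-of-ratios scale rather than one of total depth.

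limma 3.58.1 (R 4.3.3) was run on log2(FPKM + 0.1) of genes whose mean reached 0.5 FPKM in the libraries of a fit (eBayes with an intensity trend, Benjamini-Hochberg adjustment over all genes tested), fitting only the groups compared. The study tested counts, which were not used here. Because 0.1 is added before the log, a fold change on this scale understates that of low genes. Exact permutation tests (Python 3.11.15) were two-sided on the difference of mean log2 values, with a smallest p of 0.1 for 3 against 3 libraries and 0.0286 for 3 against 4. The steps were tested on simulated data. Depth was estimated from steps between low values of genes with at least 1500 coding bases and is rough. Positions are 1-based, from GENCODE M21 on GRCm38, where all 10 genes were found.

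Named genes were the 10 members, the other 12 family genes, Ntn1, the 2 signalling genes with the largest change each way in each comparison, and for each member the 2 genes most similar in pattern. Crkl and Rac1, the overlapping genes and the comparison by Y-linked transcripts were chosen after their values were seen. The members and lists were chosen with earlier results of these data known. The labels do not say whether replicate numbers pair the libraries. The correlation of deviations of same-numbered libraries was −0.0388 to 0.0785, which cannot exclude a shared litter or batch. Alternatives were another pseudocount (1 or 0.01), no filter or 1 FPKM, quantile or total scaling, no trend, 1 fit of all libraries, the replicate number as a block, sex as a covariate and each library left out. Leaving out single libraries for the counts of groups without overlap was added after seeing the data.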

Additional observations from a re-analysis of the deposited data

Results flagged for a closer look

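Among 39 sets of 4 wild-type values examined (the 22 genes of the family and sums and ratios of them), 3 had a library far from the others by Dixon's test at the 95% level, where chance gives about 1 in 20. Ephb4 was at 35.46 FPKM in wild-type library 3, with the next at 44.55 FPKM. The receptor sum was 103.8 FPKM in the same library, with the next at 129.2 FPKM. Ephb4 made up 34.2% of that sum there, so these 2 results are not independent. The 39 sets share genes, so 3 of 39 cannot be read directly against 1 in 20. Epha10 was at 0.01557 FPKM in wild-type library 4, with the next at 0.007519 FPKM, levels that amount to few fragments. Leaving out wild-type library 3 changed the Ephb4 difference between Ntn1SPKO and wild type from 0.07 to −0.02 on the log2 scale. The groups of 3 libraries were not examined in this way.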

How the results depend on the processing

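Under every alternative that kept the adjusted p limit, 0 of 10 members were called in each of the 3 comparisons. With an unadjusted p under 0.05 and no fold limit in its place, the count for Ntn1SPKO against control was 1. Over all alternatives, the members under that unadjusted limit numbered 0 to 1 against control, 0 to 2 against wild type and 0 to 2 between control and wild type. Calls over all genes, 8, 7 and 1, ranged over 0 to 78, 0 to 20 and 0 to 20. Whether the replicate numbers pair the libraries is not known. With the replicate block the Ephb2 difference from control was 0.23, and between control and wild type it turned from −0.00069 to 0.0741. There 9 of 10 intervals lay within 2-fold, as that of Ephb1 reached 1.00 on the log2 scale.

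Directions turned for differences as large as −0.158, that of Ephb1 against control, and the causes were not tested. With sex as a covariate, a fit that rests on control library 2, the log2 difference from control became 0.0108 for Efna1, 0.0602 for Efna5, 0.0035 for Epha4, 0.091 for Ephb1, 0.192 for Ephb3 and 0.0693 for Ephb4, and it was 0.36 for Ephb2 and 0.07 for Efnb2. Scaled to the same summed FPKM, it became 0.011 for Efna1 and 0.0245 for Ephb4 against control, 0.0057 for Epha4 against wild type and 0.0192 for Ephb2 between control and wild type.

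With single libraries left out, differences from control ran over −0.0775 to 0.0351 for Efna1, −0.18 to 0.0053 for Efna5, −0.258 to 0.0378 for Ephb3 and −0.0517 to 0.0193 for Ephb4. Between Ntn1SPKO and wild type they ran over −0.0304 to 0.057 for Efnb1, −2.47e-05 to 0.17 for Efnb2, −0.147 to 0.0221 for Epha7, −0.0297 to 0.198 for Ephb1, −0.145 to 0.0772 for Ephb3 and −0.015 to 0.109 for Ephb4. Between control and wild type they ran over −0.0335 to 0.113 for Epha4, −0.131 to 0.0793 for Ephb2, −0.0573 to 0.189 for Ephb3 and −0.0037 to 0.125 for Ephb4. Without control library 2, 8 of 10 members had no overlap between Ntn1SPKO and control, where all genes gave 45.5%, and without control library 3 the count was 2 of 10 (25.6%).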
